A study of Mus musculus with 5 samples.

Results

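The 5p arms of the miR-29 family were read in small RNA libraries of OP9 cells labelled as a knockout of the nuclease Drosha or as empty-vector controls. They were found as the rows of the deposited miRNA table whose name begins with mmu-miR-29a, mmu-miR-29b or mmu-miR-29c. This gave 4 mature miRNAs of 1105 listed, mmu-miR-29a-5p, mmu-miR-29b-1-5p, mmu-miR-29b-2-5p and mmu-miR-29c-5p (named without the mmu prefix from here on), each from a single hairpin. All 4 are 5p arms. The 3p arms of the same hairpins, which are the better known miR-29 products, were not analysed here. OP9 is a mouse bone-marrow stromal line that can form fat cells, and the labels call it a mesenchymal stem cell. The 2 Drosha KO libraries came from OP9 cells labelled as knocked out for Drosha. The 3 empty-vector libraries came from OP9 cells labelled as wild type at Drosha and carrying an empty vector. Both groups were kept in 1 µM rosiglitazone, which activates the adipogenic receptor PPARγ, and were harvested on day 10 of differentiation into fat cells. The labels do not say how the knockout was made, whether it is a clone, or whether replicates were separate cultures, and p-values therefore speak of library-to-library spread, part or all of which may be technical.

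Drosha cuts primary miRNA transcripts in the nucleus and frees short hairpins, which Dicer then cuts into a duplex of a 5p and a 3p strand. One strand of the duplex, the guide, is usually kept in an Argonaute protein, and the other, the passenger, is mostly degraded. In the miR-29 family the 3p strand is the usual guide. It is known for repressing collagens, elastin and other matrix genes, and for dampening insulin signalling in cultured mouse adipocytes. A 5p arm is therefore the less abundant by-product of the same cut, and its level also depends on how fast the passenger strand is lost.

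The mature sequences of the 4 arms, from RefSeq on GRCm38.p6, are given 5′ to 3′ with the seed (bases 2 to 8) in capitals, because the seeds separate the arms of this family from each other.
miR-29a-5p: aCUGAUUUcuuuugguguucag
miR-29b-1-5p: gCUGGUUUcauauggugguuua
miR-29b-2-5p: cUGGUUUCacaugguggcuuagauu
miR-29c-5p: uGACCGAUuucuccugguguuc
The 4 arms carried 4 different seeds. The 3p guide arms of these hairpins are shown for contrast, because they share 1 seed.
miR-29a-3p: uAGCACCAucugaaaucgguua
miR-29b-3p: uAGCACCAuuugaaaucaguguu
miR-29c-3p: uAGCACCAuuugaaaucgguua
Over their best ungapped overlap, the pairs of 3p arms were 81.8% to 95.5% identical. miR-29b-1-5p and miR-29b-2-5p were the closest 5p pair, with 19 of 21 overlapping bases the same (90.5%) and the second starting 1 base further into the shared stretch. miR-29a-5p and miR-29c-5p matched at 17 of 20 overlapping bases (85.0%), also within the range of the 3p pairs. The other 4 pairs of 5p arms were less alike, at 57.1% to 63.6%. The mismatches allowed in read assignment are not stated, so reads near the shared stretch of miR-29b-1-5p and miR-29b-2-5p could have been assigned to either. Of the miRNAs listed in the table, 938 of 1105 had a RefSeq mature sequence, and the only one that shared a seed with a member was miR-6338, with the seed of miR-29b-2-5p and no reads in any library.

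The 4 hairpins form 2 clusters. On chromosome 6, minus strand, Mir29a lies at chr6:31062660-31062747 and Mir29b-1 at chr6:31063023-31063093, with 275 bases between them. In GENCODE M21, Mir29b-1 overlaps the lincRNA Gm27019 by 2 bases and Mir29a overlaps no other annotated gene. On chromosome 1, plus strand, Mir29b-2 lies at chr1:195037040-195037120 and Mir29c at chr1:195037547-195037634, with 426 bases between them. Both lie in an exon of the noncoding gene A330023F24Rik and opposite an untranslated stretch of an exon of the protein-coding gene Cd46, which is on the other strand. The chromosome 6 hairpins are printed with both mature arms in capitals, since the arm without reads in Drosha KO, miR-29a-5p, comes from this cluster.
Mir29a: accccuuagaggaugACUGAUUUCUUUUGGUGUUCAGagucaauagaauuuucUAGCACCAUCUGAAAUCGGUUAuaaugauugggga
Mir29b-1: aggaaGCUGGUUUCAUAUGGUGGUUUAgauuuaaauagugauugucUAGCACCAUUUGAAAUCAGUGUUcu

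The values were deposited as TPM, reads divided by the length of the miRNA and scaled to 1000000 per library, so every difference is one of relative abundance. Whole reads could be recovered from them. The recovered totals were 277142 to 304722 reads in the Drosha KO libraries and 1918589 to 2262367 in the empty-vector libraries, and 1 read of a 22-base miRNA was worth 3.32 to 3.67 TPM in the Drosha KO libraries and 0.448 to 0.528 TPM in those of empty vector. Low miRNAs were therefore measured far less precisely in the knockout. The Drosha transcript was not analysed here. The 4 tested miRNAs of a list that is made without Drosha (miR-484 from a capped short hairpin, the spliced mirtrons miR-1981-5p and miR-877-5p, and the scaRNA-derived miR-1839-5p) rose in the Drosha KO libraries (limma, Benjamini-Hochberg adjusted p from 4.81e-11 to 0.0107), by 1.17 to 4.50 on the log2 scale. Of 11 mesenchymal marker arms listed, 10 had reads, with a summed level of 44222 to 53355 TPM in the Drosha KO and 32769 to 36490 TPM in the empty-vector libraries. Of 8 epithelial marker arms 1 had reads, with at most 7.33 TPM in the Drosha KO and 4.03 TPM in the empty-vector libraries. Of 7 haematopoietic marker arms 4 had reads, and miR-142a-5p, miR-144-5p and miR-223-5p were at 0 in all libraries; the sum was 8476 to 8705 TPM in the Drosha KO libraries and 8750 to 11624 TPM in the empty-vector libraries, most of it miR-146a-5p. Of 9 mesenchymal markers tested, 4 were called higher in Drosha KO, miR-145a-5p (log2 change 1.41), miR-125b-5p (0.82), miR-199a-5p (0.70) and miR-143-3p (0.51), and 1 lower, miR-10a-5p (-1.07; limma, Benjamini-Hochberg). Of 4 haematopoietic markers tested, 1 was called higher, erythroid miR-451a (2.17), at 19.9 and 58.7 TPM in the Drosha KO libraries. The other 3 went the other way and were not called: miR-150-5p (-1.33), miR-155-5p (-0.70) and miR-146a-5p (-0.20). The median log2 change of the 4 was -0.45. Beside these counts, 27.8% of all 205 tested miRNAs were called higher and 27.3% lower in Drosha KO (limma, Benjamini-Hochberg). The part of the marker miRNAs in the miR-29 values was not tested.

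The miR-29 5p arms were minor miRNAs in every library. Their summed level was 205 and 198 TPM in the Drosha KO libraries, against 137, 168 and 180 TPM in the empty-vector libraries. Each Drosha KO value was above each empty-vector value. Of the 205 tested miRNAs, 73.7% had groups that did not overlap, and 35.6% had them with Drosha KO higher. The mean sum was 201 ± 5.45 TPM in Drosha KO (SD, n = 2) and 161 ± 22.2 TPM in empty vector (SD, n = 3), a ratio of 1.25. An exact permutation test over the 10 splits of 2 against 3 libraries gave p = 0.2 (two-sided), where the smallest p the design allows is 0.1. The sum rested on 62 and 54 reads in the Drosha KO libraries and on 306, 337 and 341 reads in the empty-vector libraries.

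**Figure D1:**
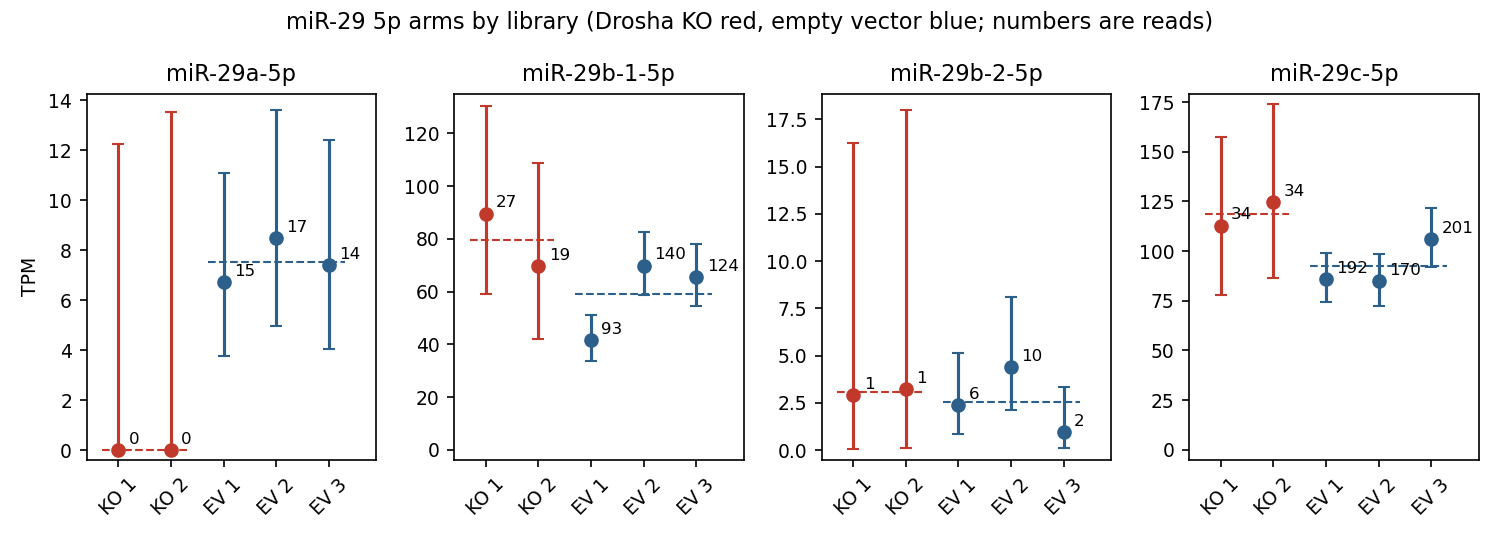
TPM of each miR-29 5p arm in the 2 Drosha KO (KO) and 3 empty-vector (EV) libraries; bars are exact Poisson 95% intervals, which cover counting error only, dashed lines are group means and numbers are reads, and each panel has its own vertical scale. miR-29c-5p and miR-29b-1-5p carried nearly all reads of the family, and miR-29a-5p had reads in the empty-vector libraries alone.

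The arms held the same order at the top of the family in all 5 libraries. miR-29c-5p was the highest, miR-29b-1-5p came next, and together they made up 98.4% to 98.6% of the summed TPM in Drosha KO and 92.3% to 95.4% in empty vector. The ratio of miR-29c-5p to miR-29b-1-5p was 1.26 and 1.79 in the Drosha KO libraries against 2.06, 1.21 and 1.62 in those of empty vector. In 3 of these 5 libraries, both of Drosha KO and empty-vector library 2, the Poisson intervals of the 2 arms overlapped, so the order was not separated from counting error there. miR-29a-5p and miR-29b-2-5p were far below. Among the mature miRNAs of its library, miR-29c-5p ranked 87 in both Drosha KO libraries and 87 to 96 in the empty-vector libraries, and miR-29b-1-5p ranked 92 and 104 in Drosha KO and 104 to 116 in empty vector.

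In the chromosome 6 cluster, miR-29b-1-5p was at 89.6 and 69.7 TPM in the Drosha KO libraries, from 27 and 19 reads, against 41.7, 69.9 and 65.4 TPM in the empty-vector libraries, from 93, 140 and 124 reads. The groups overlapped, since Drosha KO library 2 was just below empty-vector library 2, and empty-vector library 1 was the lowest. The means were 79.6 ± 14.1 TPM in Drosha KO (SD, n = 2) and 59.0 ± 15.2 TPM in empty vector (SD, n = 3), a ratio of 1.35. The log2 change was 0.45 (SE 0.39, 95% interval -0.35 to 1.25, limma with Benjamini-Hochberg adjusted p = 0.311), which did not pass the threshold of 0.05. The interval includes no change and also a difference of over 1 on the log2 scale, so these libraries do not show that miR-29b-1-5p stayed the same.

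miR-29a-5p, the other arm of that cluster, had 0 reads in both Drosha KO libraries. It was at 6.72, 8.48 and 7.39 TPM in the empty-vector libraries, from 15, 17 and 14 reads. All 3 empty-vector libraries held it, at a mean of 7.53 ± 0.891 TPM (SD, n = 3). A count of 0 allows up to 3 reads, which is 9.95 and 11.0 TPM in the Drosha KO libraries and above every empty-vector value. At the empty-vector mean level, 2.27 and 2.05 reads would have been found in the Drosha KO libraries. A difference was therefore not detectable in either library taken alone at this depth, and no fold is given. A TPM limit over both Drosha KO libraries together was not computed. With a mean of 4.52 TPM over the 5 libraries, miR-29a-5p was under the filter of 5 TPM and was not among the tested miRNAs. In the 6 alternative settings in which it entered the test it was called lower (limma or limma voom, Benjamini-Hochberg). With 0 reads in Drosha KO its mean rested on the empty-vector libraries alone, and the depth limit above holds in each of these settings, so the calls are not used as support for a difference. The fitted log2 difference of a miRNA without reads depends on the value added before the logarithm: it was -3.09 with 1 TPM added, -6.25 with 0.1 and -0.81 with 10.

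In the chromosome 1 cluster, miR-29c-5p was at 113 and 125 TPM in the Drosha KO libraries, from 34 reads in each, against 86.0, 84.8 and 106 TPM in the empty-vector libraries, from 192, 170 and 201 reads. Both Drosha KO libraries were above all 3 empty-vector libraries, with Drosha KO library 1 and empty-vector library 3 the nearest pair. Its mean was 119 ± 8.40 TPM in Drosha KO (SD, n = 2) and 92.3 ± 11.9 TPM in empty vector (SD, n = 3), a ratio of 1.29. The log2 change of 0.37 did not pass the threshold (SE 0.34, 95% interval -0.34 to 1.07, limma with Benjamini-Hochberg adjusted p = 0.35). Groups that do not overlap were common, at 73.7% of the 205 tested miRNAs, with the Drosha KO libraries the higher ones for 35.6% and the lower ones for 38%.

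miR-29b-2-5p, the arm with the lowest mean over the 5 libraries, had 1 read in each Drosha KO library, or 2.92 and 3.23 TPM. It had 6, 10 and 2 reads in the empty-vector libraries, or 2.37, 4.39 and 0.928 TPM. The groups overlapped, and every Drosha KO value rested on a single read. Its mean over the 5 libraries was 2.77 TPM, so it too was under the filter and was not tested. In empty-vector libraries 1 and 2 it was 36.4-fold and 19.3-fold lower than miR-29c-5p, the arm encoded 426 bases away. It was 114-fold lower in empty-vector library 3 and 38.6-fold lower in both Drosha KO libraries, from 2 reads and 1 read each.

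Of the 2 arms tested, 0 were called in either direction. Over all 205 tested miRNAs 55.1% were called, with 57 (27.8%) higher and 56 (27.3%) lower in Drosha KO (limma, Benjamini-Hochberg), and the median log2 change was -0.08 against a median of 0.41 for the 2 arms. At an unadjusted p under 0.05 there were still 0 of the 2 arms, against 124 of all tested miRNAs, and limma voom on the recovered reads also called 0 of the 2.

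**Figure D2:**
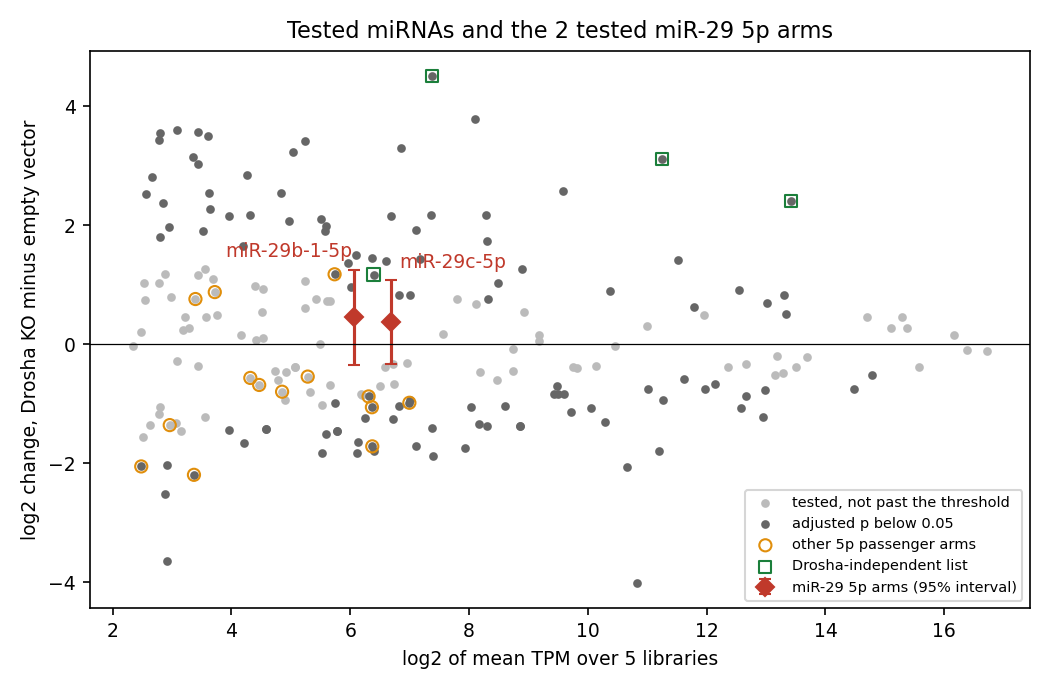
Log2 change (Drosha KO minus empty vector, on log2(TPM + 1)) against log2 mean TPM for the 205 tested miRNAs. The 2 tested miR-29 5p arms (red diamonds with 95% intervals) lie at 0.45 and 0.37, among the miRNAs that did not pass the threshold, while the Drosha-independent list (green squares) lies above 1 and most other 5p passenger arms (orange circles) lie below 0.

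Because arms of a cluster come from 1 primary transcript, their balance was also read within each library, where it does not depend on scaling between libraries. In the chromosome 6 cluster, miR-29a-5p held 0 of 27 and 0 of 19 reads of the pair in the Drosha KO libraries, with Clopper-Pearson 95% upper limits of 12.8% and 17.6%. It held 13.9%, 10.8% and 10.1% in empty-vector libraries 1 to 3, or 15 of 108, 17 of 157 and 14 of 138 reads. Single Drosha KO libraries thus could not show a lower share. Over the group, 0 of 46 reads in Drosha KO had a Clopper-Pearson 95% upper limit of 7.71%, against 46 of 403 reads, or 11.4%, in empty vector (interval 8.48% to 14.9%). These limits cover counting error only. The exact permutation test on the shares gave p = 0.1, the smallest that 2 against 3 libraries allows, with both Drosha KO libraries below all 3 empty-vector libraries.

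In the chromosome 1 cluster, miR-29b-2-5p held 2.86% of the reads of the pair in both Drosha KO libraries, against 3.03%, 5.56% and 0.985% in the empty-vector libraries, the last from 2 reads (Clopper-Pearson 95% interval 0.12% to 3.51%). Over the group this was 2 of 70 reads in Drosha KO and 18 of 581 reads in empty vector, with Clopper-Pearson 95% intervals of 0.348% to 9.94% and 1.85% to 4.85%. The groups overlapped (exact permutation p = 0.8). Between the clusters, miR-29b-1-5p held 44.3% and 35.8% of its reads with miR-29c-5p in Drosha KO, against 32.6%, 45.2% and 38.2% in empty vector (exact permutation p = 0.8). With 3 such shares compared, the adjusted p was 0.3 for miR-29a-5p and 0.8 for the other two (Benjamini-Hochberg).

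**Figure D3:**
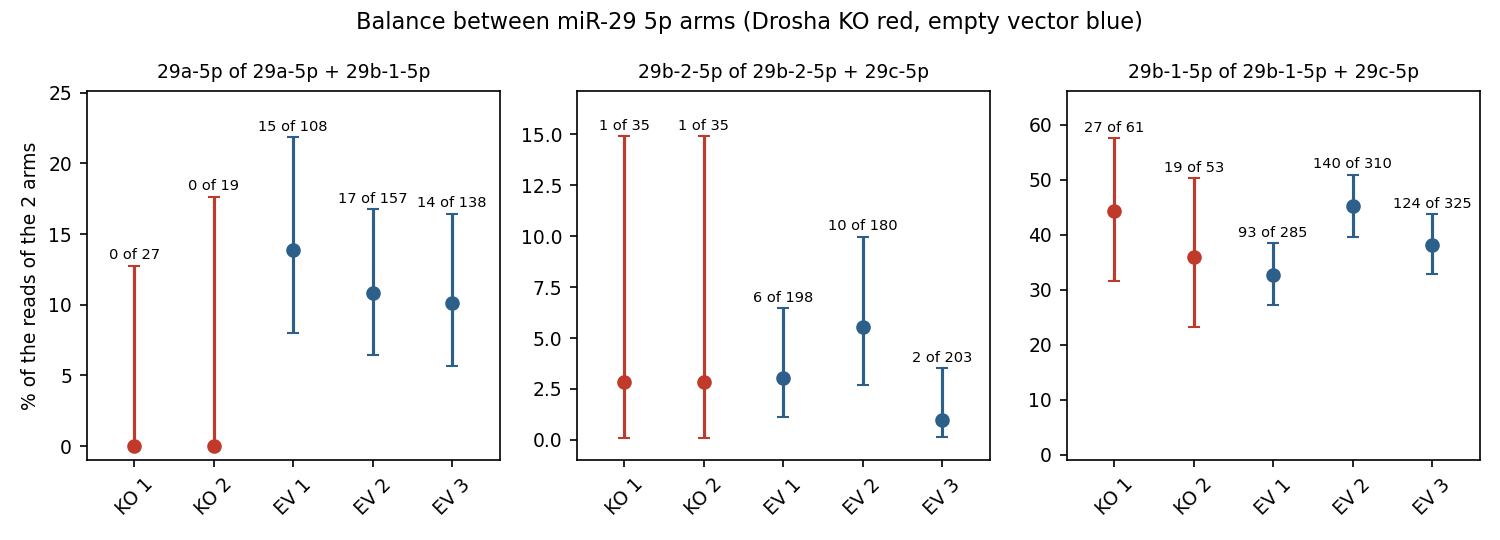
Share of reads, in percent, that 1 arm held of the reads of 2 arms in each Drosha KO (KO) and empty-vector (EV) library, with exact binomial 95% intervals; read numbers stand above the bars. The share of miR-29a-5p was 0 in both Drosha KO libraries and 10.1% to 13.9% in the empty-vector libraries, and the other shares overlapped between the groups.

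Other 5p arms that are usually passenger strands were set beside the family. Of 43 in the list 22 had reads and 14 were tested, of which 1 was called higher and 6 lower in Drosha KO, with a median log2 change of -0.84. Over all 205 tested miRNAs 55.1% were called, 27.8% higher and 27.3% lower, with a median of -0.08. miR-92a-1-5p, the passenger of a cell-cycle-linked cluster, was at 9.52 and 0 TPM in the Drosha KO libraries, against 11.1, 14.3 and 16.7 TPM in the empty-vector libraries, and was called lower (log2 change -2.20, limma with Benjamini-Hochberg adjusted p = 0.0211). miR-365-1-5p was at 0 and 3.51 TPM in Drosha KO, against 10.3, 9.07 and 5.05 TPM in empty vector, and was called lower (-2.06, adjusted p = 0.0374). Both have a Drosha KO library at 0 and averaged under 5 TPM in Drosha KO (4.76 and 1.75 TPM), against 14.0 and 8.13 TPM in empty vector, so they passed the filter of 5 TPM through the empty-vector libraries, and both calls rest on few Drosha KO reads. The 1 called higher was miR-24-2-5p, at 82.9 and 73.3 TPM in Drosha KO, against 23.3, 28.9 and 58.0 TPM in empty vector (1.17, adjusted p = 0.0248), a level close to that of miR-29b-1-5p. The difference between the miR-29 arms and this list was not tested.

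miRNAs described as acting on matrix genes and fibrosis, the field of the miR-29 guide arms, were also counted. Of 13 tested, 3 were called higher, 3 lower and 7 did not pass, with a median log2 change of -0.22. Over all tested miRNAs 27.8% were called higher and 27.3% lower, with a median of -0.08, so the counts of this list were near the background. The profibrotic miR-145a-5p was higher, at 2523 and 7088 TPM in Drosha KO, against 1100, 1598 and 2280 TPM in empty vector (log2 change 1.41, limma with Benjamini-Hochberg adjusted p = 0.000851). miR-30a-5p was also called higher, just past the threshold (0.76, limma with Benjamini-Hochberg adjusted p = 0.0468). It was at 299 and 557 TPM in Drosha KO, against 177, 309 and 256 TPM in empty vector, so the groups overlapped. The largest falls were those of miR-204-5p (-4.01) and miR-15b-5p (-1.80), which are named in the title of the study and were chosen on these samples.

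The miRNAs with the most similar profiles were ranked by the root mean square difference of log2(TPM + 1) over the 5 libraries, after centring each miRNA on its own mean. For miR-29b-1-5p they were miR-3473d (difference 0.051), miR-15a-5p (0.21) and miR-33-5p (0.26), where the median over 204 other miRNAs was 0.72. For miR-29c-5p they were miR-33-5p (0.080), miR-193a-5p (0.16) and miR-143-3p (0.16), against a median of 0.67. miR-29c-5p stood in place 6 among the profiles closest to miR-29b-1-5p, and miR-29b-1-5p in place 26 among those closest to miR-29c-5p. Of these like miRNAs, miR-143-3p alone was called, at 12546 and 12465 TPM in Drosha KO and 9523, 8185 and 8724 TPM in empty vector (log2 change 0.51, limma with Benjamini-Hochberg adjusted p = 0.0463). These are rankings over 5 libraries, and miR-3473d and miR-33-5p averaged only 9.26 and 9.78 TPM.

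The direction of the abundant arms depended on how libraries were scaled. With the trimmed mean of M values, which moved the median of all tested miRNAs to -0.50, the log2 change was 0.072 for miR-29b-1-5p and -0.015 for miR-29c-5p, and neither passed. The summed Drosha-independent list was also made equal between libraries, which moved the median to -2.72. Both arms were then called lower, at -2.02 for miR-29b-1-5p (limma, Benjamini-Hochberg adjusted p = 0.000246) and -2.12 for miR-29c-5p (adjusted p = 3.69e-05). Most of that sum was miR-484, at a mean of 21326 TPM in Drosha KO and 4094 TPM in empty vector. The sum was 26699 to 27349 TPM in Drosha KO and 4228 to 5736 TPM in empty vector, so making it equal lowers most other miRNAs by construction. Both arms stayed above the median of tested miRNAs under each of these scalings. A scaling divides all miRNAs of a library by the same factor, so this place was nearly set in advance and is no separate result. The split of calls over all tested miRNAs was 57 higher against 56 lower as deposited, 42 against 84 with the trimmed mean and 4 against 169 with the Drosha-independent sum. TPM carries no measure of total miRNA per cell, so which scaling reflects the amount per cell was not tested.

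**Figure D4:**
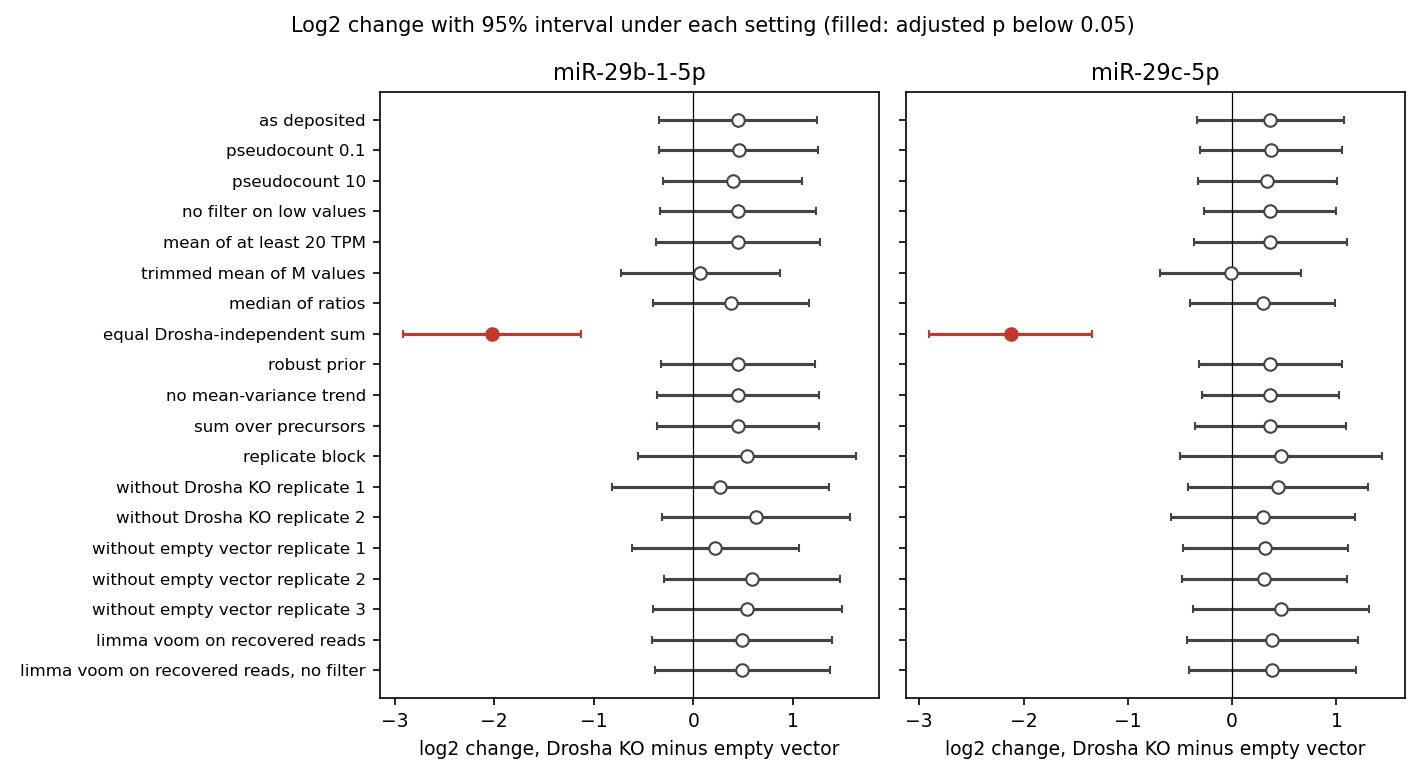
Log2 change (Drosha KO minus empty vector) of miR-29b-1-5p and miR-29c-5p with its 95% interval under each setting; filled points had an adjusted p below 0.05. Both intervals include 0 in every setting shown except the Drosha-independent sum, where the changes were -2.02 and -2.12.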

How the data were processed

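Small RNA libraries of 2 Drosha KO and 3 empty-vector samples were used. The labels' protocols describe unique molecular identifiers and a DNBSEQ instrument. The authors deposited TPM for 1191 pairs of a mature miRNA and a precursor. Bowtie2 2.5.1 and the build GRCm38 appear, with no role stated, per the submitters' processing notes. Counting, trimming and use of the identifiers are not stated, and could set how near-identical arms share reads.

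The pair with the highest mean was kept per mature miRNA. Reads were recovered by multiplying TPM by the RefSeq mature length (406 of 536 pairs with reads) or a searched length of 16 to 27 bases. At a tolerance of 1e-06, 100% of pairs came out whole. Values of log2(TPM + 1) were tested with limma (version 3.58.1, R 4.3.3) and a trended prior. The fit covered 205 miRNAs averaging 5 TPM or more, with two-sided p-values adjusted by Benjamini-Hochberg at 0.05. This scale shrinks changes of low miRNAs that have reads in both groups. A Drosha KO count of 0 enters as 1 TPM, under the 3.32 to 3.67 TPM of 1 read there. Falls of low miRNAs to 0 can therefore be overstated. The procedure was also run on simulated reads, with changes placed only on miRNAs above a minimum level. That run does not cover arms as low as miR-29a-5p and miR-29b-2-5p, and its outcome is not given here. Permutation tests were exact, and intervals are 95%. Alternatives were other pseudocounts, filters, scalings, priors, precursor sums, a replicate block, left-out libraries and limma voom on recovered reads.

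Named miRNAs were the members, the 3 closest profiles of each tested member, miRNAs sharing a seed, tested Drosha-independent miRNAs, and up to 2 called members per direction of each other list. The members and lists were chosen with earlier results of these data known.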

Additional observations from a re-analysis of the deposited data

How the results depend on the processing

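Neither tested arm was called in any of the 18 alternatives except with the Drosha-independent sum, where the log2 change was -2.02 for miR-29b-1-5p and -2.12 for miR-29c-5p and the log2 ratio of the summed TPM was -2.20. With the trimmed mean of M values miR-29c-5p was at -0.015 and the sum at -0.056. Leaving out each library gave 0.22 to 0.63 for miR-29b-1-5p, 0.29 to 0.47 for miR-29c-5p and 0.21 to 0.40 for the sum. The number of the 4 arms called was 0 as deposited, 1 with no filter, with the trimmed mean and with limma voom without a filter, 3 with the Drosha-independent sum, and 0 to 1 with a library left out; apart from the Drosha-independent sum the arm called was miR-29a-5p, which has no Drosha KO reads. Without Drosha KO library 1 or 2 its mean passed the filter through the empty-vector values alone, and the lone Drosha KO library left, with 0 reads, was assumed to vary like the empty-vector libraries, so these calls are no support for a difference. Voom without a filter was chosen after seeing the data.

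Of all tested miRNAs, 4 were higher and 169 lower with the Drosha-independent sum, 35 lower with no mean-variance trend, 36 lower with limma voom, 207 higher with voom without a filter, and 29 to 54 lower (39 to 61 higher) with a library left out. With replicate number as a block, 35 were lower, miR-29b-1-5p was at 0.54 (limma, Benjamini-Hochberg adjusted p = 0.425) and miR-29c-5p at 0.47 (adjusted p = 0.435). Same-numbered libraries had deviations that correlated at -0.12 and -0.14 across miRNAs, and the labels do not pair them, so the number is only a name. Depth limits miR-29a-5p and miR-29b-2-5p, with 0 and 2 reads over the Drosha KO libraries.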
